A study of Pistacia vera with 121 samples.

Results

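The young kernel (seed) of the pistachio cultivar Kerman was compared between 2 sampling points of the season, labelled 1357 and 1223 growing degree days (°C), a running sum of daily heat that tracks development. These are the first 2 of the 12 labelled kernel points. The libraries were chosen by their labels alone: K9, K10 and K11 are labelled kernel, 1357 degree days, and K1, K2 and K3 are labelled kernel, 1223 degree days, which makes 6 of the 121 RNA sequencing libraries of the series and 6 of its 39 kernel libraries. All libraries of the series share the cultivar, no treatment, tree or year is given for either group, and the labels do not say whether libraries of a group came from separate trees or how many fruits were pooled, so p-values measure the spread between these libraries, which may in part be technical. The other libraries of the series are hull (the outer fruit wall, 47) and shell (the hard endocarp, 35), and those of the same points serve below as a comparison: 4 hull libraries at 1357 and 2 at 1223, and 3 shell libraries at 1357 and 4 at 1223.

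A pistachio fruit encloses a single seed, and the hull and shell reach their size well before the seed inside them enlarges. A young seed holds an embryo, the endosperm that nourishes it and a maternal seed coat, and in the ripe kernel the embryo's cotyledons, rich in oil and protein, fill most of the space. Bulk RNA of such a seed mixes these parts, and for every level below, fewer cells of a type and less RNA per cell cannot be told apart.

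Genes are given under the identifiers of the deposited table. None of them (0 of 38315) matched the RefSeq gene table of pistachio, so no gene name, function, position or sequence could be attached, and 2 genes that were higher and 2 that were lower at 1357 are named. Levels are given as CPM, a library's counts scaled to a common total over the 37063 identifiers that start with PvKer. Within a library they are shares of counts and are not corrected for gene length. The 6 libraries held 3280773 to 12262681 such counts. The 1252 identifiers named after assembly contigs were left out. They took 3.03%, 26.7% and 4.16% of all counts in K9, K10 and K11, against 0.761%, 1.57% and 10.8% in K1, K2 and K3.

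Among the 38 groups of the series, each of the 6 libraries was nearest to its own group (r on log2(CPM + 1) across genes, 0.989 to 0.993 at 1357 and 0.989 to 0.995 at 1223). No 2 libraries of a group differed as little as sampling noise allows, with a chi-square of at least 5.04 for each degree of freedom. K2 stood apart within its group in how counts were spread over genes, as described below. The second nearest group was kernel 1508 for the libraries labelled 1357 (r 0.966 to 0.969). For those labelled 1223 it was the kernel group labelled 2564, the last point of the season (r 0.988 to 0.990), and not kernel 1357, the next point. The 3 libraries labelled 2564 were in turn nearest, after each other, to kernel 1223 (r 0.989 to 0.990). Their profiles thus go against their place in the labelled season. Their library numbers, K6, K7 and K8, fall between those of the kernel groups labelled 1223 and 1357. The cause was not tested, and their values are given below under that label.

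The tissue label was checked with lists drawn from hull, shell and kernel libraries of the points 1508 and 1657, none of them among the 6. The 446 genes higher in kernel than in both fruit tissues by a log2 fold change of 4 or more took 40.8%, 37.3% and 36.5% of counts in K9, K10 and K11, against 24.9%, 16.3% and 24.5% in K1, K2 and K3. In hull and shell at 1357 and 1223 they took 0.417% to 1.20%. The 400 genes lower in kernel by as much took 0.161% to 0.213% at 1357 and 0.135% to 0.182% at 1223, against 4.47% to 6.03% in hull and shell. Both kernel groups thus held the kernel genes and carried little of the fruit wall genes. Of these 400, between 40 and 83 had no count in a library labelled 1357 and between 36 and 48 had none in a library labelled 1223. Of 444 kernel genes tested between the points, 145 (32.7%) were called higher and 62 (13.96%) lower at 1357. Of 217 fruit wall genes that passed the filter on low counts, 64 (29.5%) were called higher and 29 (13.4%) lower. A gene can pass this filter on its counts in a single group, so the filter can fix part of these shares. Of all genes tested, 13.5% were called higher and 15.6% lower. The part of the fruit wall genes in the results below was not tested.

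The step from 1223 to 1357 asked which genes change as the young seed develops. Of 15127 genes tested, 2041 (13.5%) were called higher and 2354 (15.6%) lower at 1357, together 4395 or 29.1%. A call needed an adjusted p below 0.05 (edgeR's quasi-likelihood test, Benjamini-Hochberg adjustment) and a log2 fold change of 1 or more in size. The median log2 fold change was 1.75 among genes called higher, -1.68 among genes called lower and -0.06 over all genes tested. A log2 fold change of 2 or more in size was found for 853 genes called higher and 834 called lower, and one of 5 or more for 124 and 37. On the CPM scale every library of 1357 lay above every library of 1223 for 1848 of the genes called higher (90.5%, beside 15.1% of all genes tested), and below for 2348 of those called lower (99.7%, beside 47.9%). No count in any of the 3 libraries at 1223 was recorded for 20 of the genes called higher, and none at 1357 for 13 of those called lower. With these genes set to the fold of their mean over a limit of 3 counts in the other group, both medians kept their values.

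The split between the directions depended on scaling. The fit above scaled libraries by TMM, which takes most genes as unchanged. With library totals alone, 1307 genes were called higher and 4078 lower, 24.3% higher against 46.4% in the fit above, and the median log2 fold change of all genes moved to -0.48. None of the genes called above was called in the opposite direction under any of the 18 other settings run on this step. When all 39 kernel libraries shared 1 estimate of the spread, 1341 genes were called higher and 1210 lower, and 1255 and 1144 of these were among the genes called above.

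**Figure D1:**
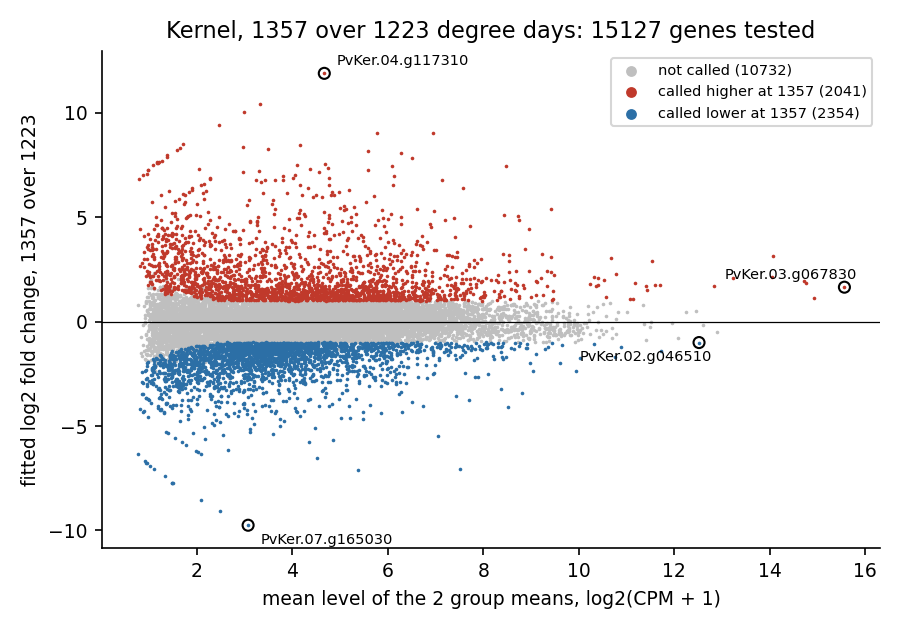
Each point is 1 of the 15127 genes tested, with the mean of the 2 group means as log2(CPM + 1) on the horizontal axis and the fitted log2 fold change, 1357 over 1223, on the vertical axis. The 2041 genes called higher lie above 0, the 2354 called lower below it, and the 4 named genes are ringed.

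The genes called higher took a large share of the library. At 1357 the 2041 genes took 46.95%, 43.6% and 43.2% of counts in K9, K10 and K11, against 20.1%, 10.7% and 20.2% in K1, K2 and K3. Their share was thus 44.6% ± 2.05 at 1357 and 16.97% ± 5.46 at 1223 (SD, n = 3 each). The 2354 genes called lower took 3.09%, 3.196% and 3.45% at 1357, against 11.9%, 14.8% and 10.9% at 1223. These shares describe the genes that the same libraries chose and have no test. The typical gene of either list was far less abundant: the median of the group means was 23.03 CPM at 1357 and 7.79 CPM at 1223 over the genes called higher, and 3.47 CPM at 1357 and 15.8 CPM at 1223 over those called lower.

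In these libraries a few genes took a larger part of all counts at 1357. The 10 most abundant genes, chosen in each library anew, held 31.5%, 26.5% and 25.9% of counts in K9, K10 and K11, against 15.0%, 9.01% and 14.9% in K1, K2 and K3. All 3 libraries at 1357 lay above all 3 at 1223, and K2 was the lowest of the 6. The difference of the means was 15.0 percentage points (exact two-sided permutation test, p = 0.1, adjusted 0.133 over 4 measures), and 0.1 is the smallest p that 3 against 3 libraries can give. The 100 most abundant genes held 42.5% ± 2.11 at 1357 and 28.7% ± 3.24 at 1223 (SD, n = 3 each, exact permutation p = 0.1, adjusted 0.133). Genes with at least 1 CPM numbered 14455, 14502 and 14661 at 1357, against 15111, 15073 and 15444 at 1223 (exact permutation p = 0.1, adjusted 0.133). The share of contig-named identifiers overlapped between the groups (exact permutation p = 0.5).

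Most of the leading genes were shared by both points. Of the 10 genes with the highest mean CPM at 1357, 7 were also among the 10 highest at 1223, and 8 of the 10 were called higher and 0 lower. Of the 10 highest at 1223, 5 were called higher and 1 lower. Of all genes tested, 13.5% were called higher and 15.6% lower, and each list of 10 was chosen on the level at 1 of the points compared. The same 10 genes took 31.3%, 26.4% and 25.9% of counts in K9, K10 and K11, against 14.5%, 6.64% and 14.4% in K1, K2 and K3. Of the 100 highest genes at 1357, 62 were among the 100 highest at 1223.

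**Figure D2:**
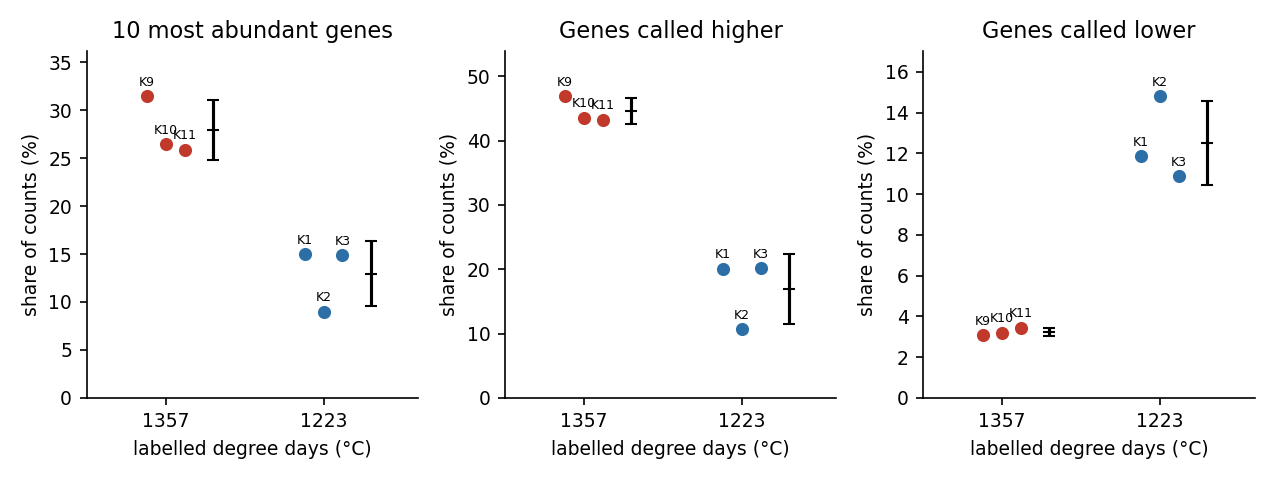
Share of PvKer counts (%) in the 10 most abundant genes of each library, in the genes called higher and in the genes called lower at 1357, with 1 point per library and the mean ± SD of 3 libraries beside them. For all 3 measures the libraries labelled 1357 (left) and 1223 (right) do not overlap. The genes called higher and lower were chosen on these same libraries, so the separation of their shares follows from the choice. K2 is the lowest for the first 2 measures and the highest for the third.

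The largest gain in CPM was that of PvKer.03.g067830, the identifier with the highest mean CPM at both points. It stood at 69228, 63308 and 71371 CPM in K9, K10 and K11, against 38419, 13449 and 35222 CPM in K1, K2 and K3. The groups did not overlap, and K2 was again the lowest. The mean was 67969 ± 4176 CPM at 1357 and 29030 ± 13588 CPM at 1223 (SD, n = 3 each), 2.34-fold higher. On the TMM scale the log2 fold change was 1.64 ± 0.339 (SE, adjusted p = 0.00163 by edgeR). Tested against a log2 fold change of 1 in place of no change, it had an adjusted p of 0.0676 by edgeR's glmTreat. In later kernel groups its mean was 80062 CPM at 1508, 78860 CPM at 1657, 38346 CPM at 1759, 63431 CPM at 1881, 29117 CPM at 2139 and 3438 CPM at 2475. In hull and shell at 1357 and 1223 no library exceeded 126.7 CPM, and in the libraries of 1508 and 1657 it was higher in kernel than in hull (log2 fold change 11.13, adjusted p = 2.21e-15) and than in shell (10.31, adjusted p = 6.36e-16, both by edgeR).

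PvKer.04.g117310 had the largest log2 rise among genes with at least 10 CPM in the higher group. It had 26.3, 42.4 and 78.0 CPM in K9, K10 and K11, from 265, 139 and 615 counts, and no count in K1, K2 or K3. The limit that a count of 0 allows over the 3 libraries at 1223 was 3 counts, or 0.110 CPM. The mean of 48.9 ± 26.5 CPM at 1357 (SD, n = 3) was 445-fold that limit, a fold that leaves out the spread between libraries. The gene rose with an adjusted p of 8.14e-07 by edgeR. In later kernel groups its mean was 33.5 CPM at 1508, 23.7 CPM at 1657, 3.75 CPM at 1759 and 6.23 CPM at 1881. From 2007 to 2475 no kernel library exceeded 1.06 CPM except K38.2 (labelled 2284), the shallowest library of the series, where 2 counts made 9.88 CPM, and in 6 of these libraries, K38.2 among them, 3 counts make 3.53 CPM or more. It was not silent in the fruit wall. In hull at 1357 it had 1.89 CPM in H15 and 6.54 to 14.01 CPM in the other libraries, and at 1223 7.53 and 8.99 CPM. In shell it had 0.0833 to 1.67 CPM at 1357. At 1223 it had 12.5 CPM in S14 and 1.83 to 5.36 CPM in the other shell libraries.

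Among the genes called lower, the largest loss in CPM was that of PvKer.02.g046510. It stood at 2801, 3266 and 3450 CPM in K9, K10 and K11, against 6568, 11604 and 7541 CPM in K1, K2 and K3. The mean was 3172 ± 334 CPM at 1357 and 8571 ± 2671 CPM at 1223 (SD, n = 3 each), 2.70-fold lower on the CPM scale, and the groups did not overlap. On the TMM scale the log2 fold change of -1.01 ± 0.219 (SE, adjusted p = 0.00234 by edgeR) lay at the minimum fold itself. It missed that minimum, with an adjusted p still below 0.05, at -0.98 with DESeq2, -0.97 with limma-voom, -0.93 without K9 and -0.70 without K2, and passed it at -1.15 with upper-quartile scaling and -1.43 with library totals alone. With all kernel libraries in the fit its adjusted p was 0.217. Tested against a log2 fold change of 1 in place of no change, the adjusted p was 0.767 by edgeR's glmTreat. Later kernel means were 1883 CPM at 1508, 1053 CPM at 1657, 239 CPM at 1759, 375 CPM at 1881, 110 CPM at 2007, 113 CPM at 2139, 30.4 CPM at 2284, 28.5 CPM at 2377 and 67.3 CPM at 2475, all below the mean at 1357. The group labelled 2564 stood apart from these, with a mean of 8686 CPM. Hull and shell libraries of 1357 and 1223 held at most 25.2 CPM.

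PvKer.07.g165030 had the largest log2 fall. No count was recorded in K9, K10 or K11, against 16.3, 21.3 and 6.89 CPM in K1, K2 and K3, from 200, 203 and 38 counts. The limit for 3 counts over the libraries at 1357 was 0.141 CPM. The mean of 14.8 ± 7.31 CPM at 1223 (SD, n = 3) was 105-fold that limit, again without the spread between libraries. The gene fell with an adjusted p of 2.21e-05 by edgeR. It stayed without a count in all 6 libraries of 1508 and 1657, and the highest value in any kernel library from 1759 to 2475 was 1.57 CPM. Not all of these libraries could show such a level, since 3 counts make 14.8 CPM in K38.2 and 9.85 CPM in K47. In shell it had 0.775 to 5.47 CPM at 1357 and 0.396 to 0.914 CPM at 1223, and in hull 0.189 to 0.654 CPM at 1357 and 0 and 0.155 CPM at 1223.

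**Figure D3:**
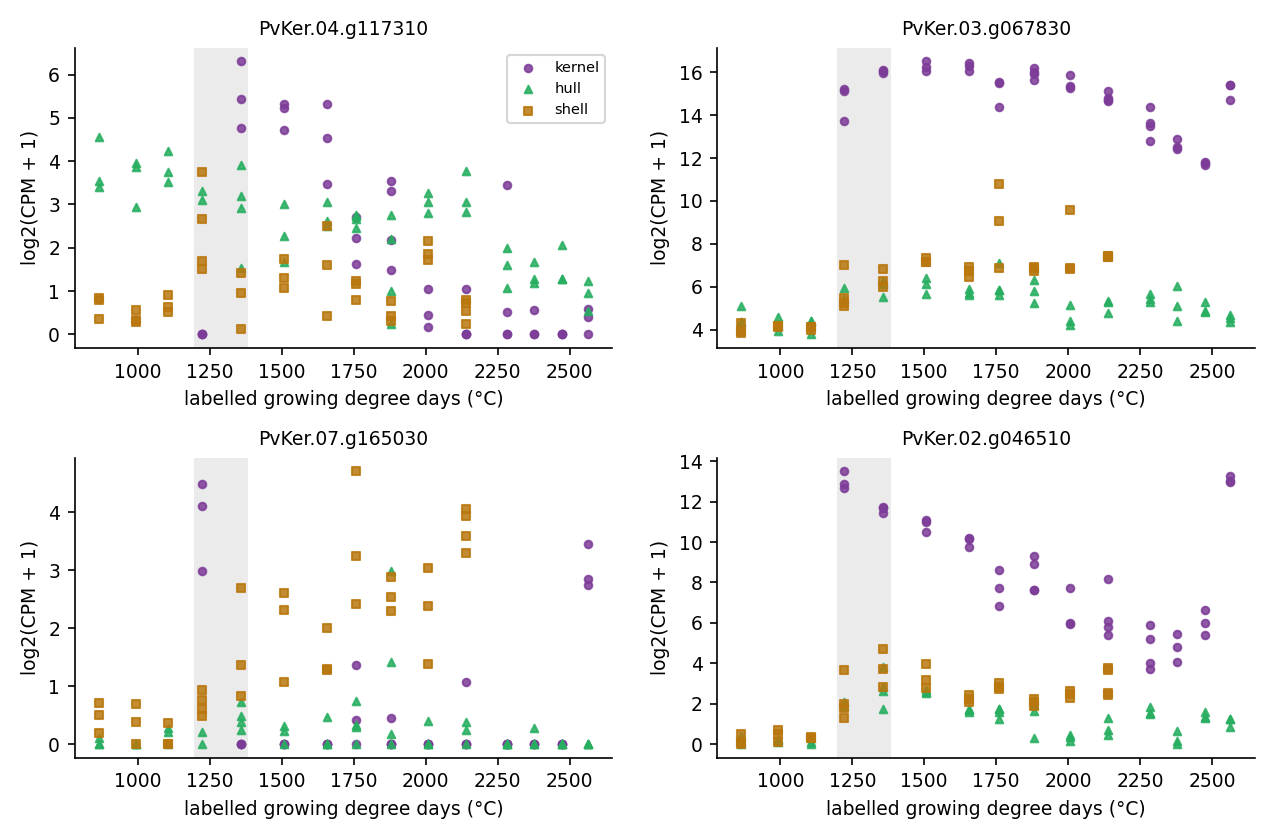
Level of the 4 named genes as log2(CPM + 1) in all 121 libraries against labelled growing degree days, with kernel, hull and shell marked by shape and colour and the points 1223 and 1357 shaded. In kernel, both genes of the upper panels are higher and both genes of the lower panels lower at 1357 than at 1223, and for all but PvKer.04.g117310 the 3 kernel libraries labelled 2564 lie closer to those labelled 1223 than to those labelled 2475.

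A small set of genes crossed between low and clear levels in every library. Below 1 CPM in all 3 libraries at 1223 and at least 10 CPM in all 3 at 1357 were 23 called genes (0.152% of those tested). The reverse held for 15 called genes (0.0992%). Of the 23, 21 had a mean of at least 1 CPM in hull or shell at 1357 or 1223 and 14 had at least 10 CPM there. Of the 15, 9 and 6 did. In these hull and shell libraries the median over all genes tested was 4.22 to 4.35 as TMM-scaled log2(CPM + 1), a level above 10 CPM. In later kernel groups 14 of the 23 had a mean of at least 10 CPM at 1508, 10 at 1657, 13 at 1881 and 7 at 2377. Of the 15, 0 had at least 10 CPM at 1508, 1 at 1657, 1 at 1881 and 2 at 2377. In the group labelled 2564, 1 of the 23 and 9 of the 15 had a mean of at least 10 CPM, and 19 and 15 had at least 1 CPM. These genes were low rather than without counts: 1 of the 23 had no count at 1223, and 0 of the 15 had none at 1357. The share of all genes tested that passes the same limits in the other groups was not counted, so these numbers are a description.

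The levels of both lists were then followed through the other kernel groups, in libraries scaled together by TMM. The median of log2(CPM + 1) over the 2041 genes called higher was 3.01 to 3.26 in the 3 libraries at 1223 and 4.85 to 4.996 at 1357, then 4.36 to 4.58 at 1508, 4.46 to 4.51 at 1657, 4.105 to 4.94 at 1881 and 3.86 to 4.28 at 2475. No later library up to 2475 came down to the levels at 1223. The median of the 2354 genes called lower was 3.92 to 4.203 at 1223, 2.24 to 2.53 at 1357, 2.58 to 2.93 at 1508, 2.70 to 2.82 at 1657 and 1.96 to 2.23 at 2475. Up to 2475 it did not return to the levels at 1223, and in K38.2, with 202455 PvKer counts, it was 0. In the group labelled 2564 the median was 3.46 to 3.70 for the genes called higher and 3.65 to 3.89 for those called lower. The median over all genes tested was 4.27 to 4.38 at 1223, 4.09 to 4.24 at 1357 and 3.65 to 3.98 at 2475. By construction each list is apart at the first 2 points, and the later points are a description.

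Of the genes called higher, 749 (36.7%) had their highest kernel group mean at 1357 itself, against 10.7% of all genes tested, 279 (13.7%) at 1759, against 15.1%, 211 (10.3%) at 1881, against 4.16%, and 207 (10.1%) at 2284, against 8.99%. Of the genes called lower, 1314 (55.8%) had it at 1223, against 18.7% of all genes tested, and 254 (10.8%) in the group labelled 2564, against 9.25%. The choice of the genes fixes part of this: of the genes called higher 0 had their highest mean at 1223, and of those called lower 0 had it at 1357, so these shares are a description.

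**Figure D4:**
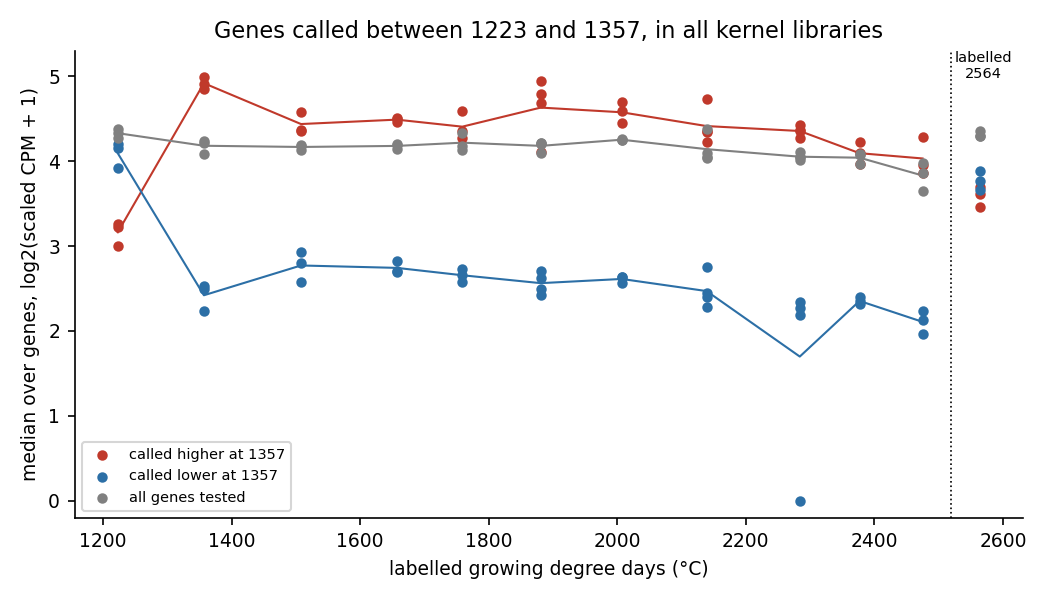
Median over genes of log2(scaled CPM + 1) in each kernel library against labelled growing degree days, for the 2041 genes called higher, the 2354 called lower and all genes tested. Lines join group means up to 2475, the lists exchange their places between 1223 and 1357 and stay apart up to 2475, and the 3 libraries labelled 2564 lie between, at 3.46 to 3.70 for genes called higher and 3.65 to 3.89 for genes called lower.

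The kernel group labelled 2564 was set against kernel at 1508, a pair of groups that shares no library with the 6. Of 14902 genes tested, 2142 (14.4%) were called higher and 1932 (13%) lower in the libraries labelled 2564. Among the genes called higher from 1223 to 1357, 1852 could be tested and 975 (52.6%) were called lower in the libraries labelled 2564, with 116 (6.26%) higher. Among those called lower, 2261 could be tested, 1018 (45.02%) were called higher and 64 (2.83%) lower, where either direction held for 27.3% of all genes tested. As shares of the other list, 50.5% of all genes lower and 47.5% of all genes higher in the libraries labelled 2564 were among these. With any 1 of the 6 libraries of this pair left out, the counts were 876 to 987 and 888 to 1053. Of the named genes, the libraries labelled 2564 lay below those of 1508 for PvKer.03.g067830 (log2 fold change -1.74 ± 0.286 SE, adjusted p = 0.000379) and PvKer.04.g117310 (-7.61 ± 0.449, adjusted p = 4.41e-07), and above them for PvKer.02.g046510 (1.53 ± 0.208, adjusted p = 9.02e-05, all by edgeR) and for PvKer.07.g165030, at 5.68 to 9.92 CPM against no count at 1508 (adjusted p = 5.85e-05).

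Whether the genes of the kernel step favour kernel or fruit wall was read from the libraries of 1508 and 1657, which again include none of the 6. Either direction was called for 56% of all genes tested against hull and 57.3% against shell. Of the genes that had fallen, 842 of the 2080 tested (40.5%) were higher in kernel than in hull, against 25.9% of all genes tested, and 417 (20.05%) were lower, against 30.1%. Set against shell, 790 of 2151 (36.7%) were higher in kernel, against 26.4% of all genes tested, and 476 (22.1%) lower, against 30.9%. Of the genes that had risen, 549 of 1984 (27.7%) were higher in kernel than in hull, and 729 (36.7%) were lower. Against shell, 589 of 1999 (29.5%) were higher and 686 (34.3%) lower in kernel. The genes of both lists had passed the filter on low counts in the 6 kernel libraries. All genes tested here were not limited in this way, so the choice can fix part of these shares. In hull at 1357 and 1223 the median of log2(CPM + 1) over the risen genes was 4.73 to 4.84 and over the fallen genes 2.42 to 2.66, beside 4.85 to 4.996 and 2.24 to 2.53 in kernel at 1357 and 3.01 to 3.26 and 3.92 to 4.203 in kernel at 1223. In shell the values were 4.53 to 4.79 and 2.51 to 2.76. Over all genes tested the median was 4.22 to 4.35 in these hull and shell libraries, 4.09 to 4.24 in kernel at 1357 and 4.27 to 4.38 in kernel at 1223. The lists were chosen on the kernel libraries of 1357 and 1223, so kernel is apart at these points by construction, and the levels are a description. The fruit wall list took at most 0.213% of counts in the 6 libraries, as given above. Of its 217 tested genes 29.5% were called higher and 13.4% lower at 1357. The part of the list in these levels was not tested.

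**Figure D5:**
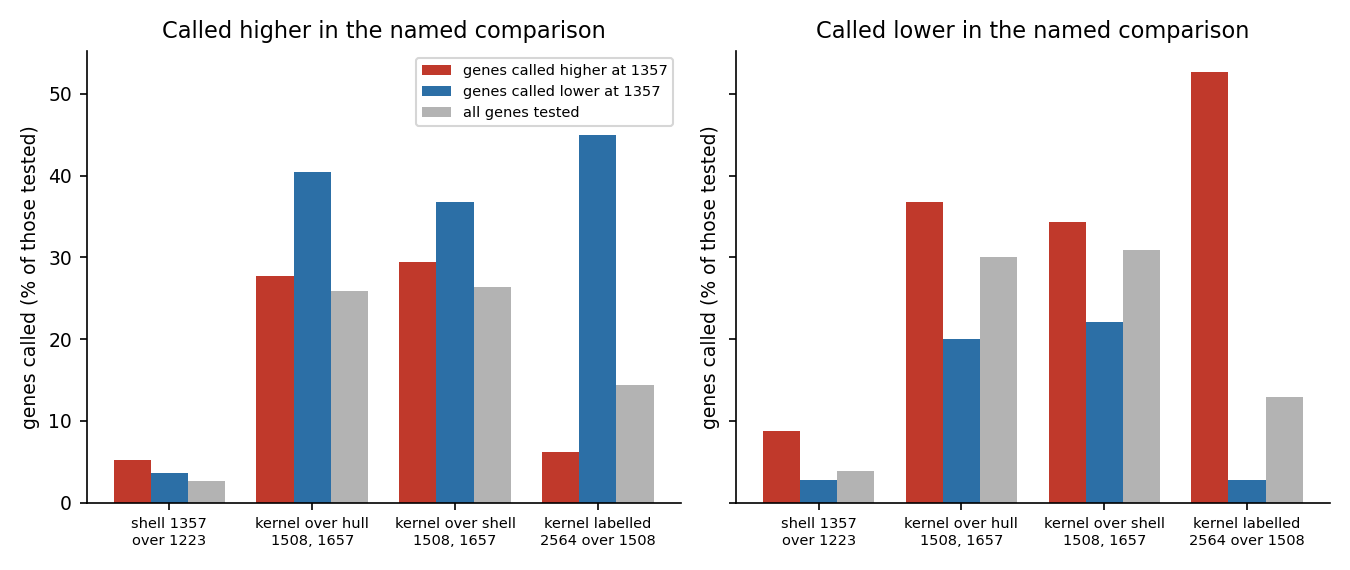
Share (%) of the genes called higher and of the genes called lower between kernel 1357 and 1223, and of all genes tested, that were called higher (left) or lower (right) in 4 other comparisons, which share none of the 6 libraries. The largest departures from all genes tested are in kernel labelled 2564 over kernel 1508, where 52.6% of the genes called higher are lower and 45.02% of the genes called lower are higher. All genes tested were not limited to those that passed the filter in the 6 libraries.

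The same interval was then examined in the fruit wall. In shell, 1111 of 17091 genes (6.5%) were called, 456 (2.67%) higher and 655 (3.83%) lower at 1357 than at 1223. Of the genes that rose in kernel, 1881 could be tested in shell, and 98 (5.21%) were called higher and 164 (8.72%) lower there. Of those that fell in kernel, 1953 could be tested, and 72 (3.69%) were called higher and 54 (2.76%) lower. These shell counts rest on few libraries: over all genes the calls were 115 higher and 227 lower without S17, 196 and 404 without S18, 101 and 183 without S19 (all labelled shell, 1357), and 741 (4.41%) and 765 (4.55%) without S14 (labelled shell, 1223). Over the same 4 fits the genes that rose in kernel gave 35 to 120 calls higher and 48 to 185 lower in shell. Of those tested this made 1.84% to 6.42% higher, against 0.574% to 4.41% of all genes tested. It made 2.52% to 9.90% lower, against 1.04% to 4.55%. In each fit both shares lay above those of all genes tested, which were not limited to genes that passed the filter in kernel.

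In hull, 0 of 16905 genes were called by edgeR, with 2245 at an unadjusted p below 0.05, and DESeq2 called 232 higher and 90 lower. This rests on H15 (labelled hull, 1357). Without it 1100 of 16708 genes (6.58%) were called higher and 511 (3.06%) lower, and among the genes that rose in kernel 203 of 1872 (10.8%) were called higher and 81 (4.33%) lower in hull. Among those that fell in kernel, 146 of 1907 (7.66%) were called higher and 76 (3.99%) lower. By library number H15 follows directly on H13 and H14 (labelled hull, 1223), and the other hull libraries labelled 1357 are H17, H18 and H19. In shell, S13 to S16 are all labelled 1223. Whether the label of H15 holds was not tested.

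The difference between the tissues was tested itself. The kernel step exceeded the shell step for 2500 of 17977 genes (13.9%) and lay below it for 2861 (15.9%) at an adjusted p below 0.05 by edgeR's quasi-likelihood test of the interaction. Both directions together made 29.8%. Against hull the numbers were 1941 (10.6%) and 1520 (8.32%) of 18265 genes, together 18.9%. The hull result moved with single libraries, to 1072 and 587 without H13, to 1023 and 626 without H14 (both labelled hull, 1223), and to 2500 below without H15. The named genes were chosen for their change in the same kernel libraries that enter these tests, so their p-values are no independent support. The rise of PvKer.04.g117310 in kernel differed from its change in hull (adjusted p = 0.000386) and in shell (adjusted p = 0.000118, both by edgeR). For the fall of PvKer.07.g165030 the adjusted p was 0.00106 against hull and 0.000162 against shell (both by edgeR). In hull alone that gene did not pass the filter on low counts, at 0 to 0.654 CPM, so no hull change was measured. For PvKer.02.g046510 the kernel step differed by -2.13 ± 0.684 in log2 fold change from hull (SE, adjusted p = 0.0465) and by -2.88 ± 0.777 from shell (adjusted p = 0.0128, both by edgeR). Its log2 fold change was -1.01 in kernel, 1.14 in hull (adjusted p = 0.490) and 1.74 in shell (adjusted p = 0.131, both by edgeR). The hull and shell changes were not called and lay at no more than 25.2 CPM, so these differences are not those of the kernel fall alone. For PvKer.03.g067830 the difference was 1.38 ± 0.506 from hull (adjusted p = 0.0753) and 1.04 ± 0.652 from shell (adjusted p = 0.249, both by edgeR), and neither passed.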

How the data were processed

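The deposited table holds raw read counts as whole numbers, without normalization by the authors. Its column names, per the file headers, come from alignment files. Trimmomatic 0.39 and Bowtie2 2.3.4.1 are named in the submitters' processing notes. Not given in the sources used here are the counting tool, genome build, annotation and use of strand, so counts of near-identical or overlapping genes are uncertain. Per the labels' protocols, libraries came from a TruSeq RNA kit and were sequenced as paired ends.

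Only PvKer identifiers were used, with library totals over these rows. The test was edgeR's (version 4.0.16, R 4.3.3; filterByExpr by group, TMM, glmQLFit, glmQLFTest), fitting only the groups compared. Calls needed an adjusted p below 0.05 plus a log2 fold change of 1 or more in size, or the adjusted p alone for interactions. A standard error is the size of the log2 fold change over the root of the F statistic. DESeq2 1.42.0 and limma 3.58.1 were alternatives. All 121 sample columns matched a label, and functions were tested on simulated counts. Plain CPM and shares are not TMM-scaled. Limits for a count of 0 (3 counts) cover counting error only. Scaling, filter, tool, minimum fold, the libraries in the fit and each library in turn were varied. Replicate numbers follow accession order and pair nothing.

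In each direction 2 genes were named: the largest log2 fold change where the higher group averaged 10 CPM or more, and the largest difference in mean CPM, both called and with groups that do not overlap on the CPM scale. Tissue lists needed calls against both hull and shell, a log2 fold change of 4 or more in size and a mean of at least 10 CPM. The members, lists and tests were chosen with earlier results of these data known. No label gives a batch, so no value within batches was computed.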

Additional observations from a re-analysis of the deposited data

Results flagged for a closer look

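By a test of the difference itself, the change between the labelled points differed between kernel and hull for 3461 of 18265 genes (18.9%), a count that moved with single libraries. Between kernel and shell the change differed for 5361 of 17977 genes (29.8%). Both counts needed an adjusted p below 0.05 by edgeR's quasi-likelihood test and no minimum fold. Among the named genes the adjusted p was below 0.05 against both tissues for PvKer.04.g117310 (adjusted p = 0.000386 against hull and 0.000118 against shell), PvKer.07.g165030 (0.00106 and 0.000162) and PvKer.02.g046510 (0.0465 and 0.0128, all by edgeR). These genes were chosen on the same kernel libraries, so this is no independent support. In hull alone PvKer.07.g165030 did not pass the filter on low counts, and PvKer.02.g046510 was not called in hull or shell alone.

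Outside the PvKer identifiers, 44 of the 1252 contig-named identifiers passed the filter when all rows were fitted, and 4 were called higher and 3 lower at 1357.

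A library far from the rest of its group was looked for in groups of 4 libraries, over several measures. This made 12 searches, of which chance marks about 1 in 20, and 3 were marked. At 1223, S14 (labelled shell) had 5.45% of counts in the fruit wall list, against 4.64% to 4.75% in the other libraries. S15 (labelled shell, 1223) had 126.7 CPM of PvKer.03.g067830, against 32.99 to 43.4 CPM, and 11.8 CPM of PvKer.02.g046510, against 1.48 to 2.96 CPM.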

How the results depend on the processing

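Between kernel at 1357 and 1223, calls higher and lower were 1307 and 4078 with library totals alone, 3362 and 3542 with no minimum fold, 1098 and 1005 with glmTreat against a log2 fold change of 1, and 1341 and 1210 with all kernel libraries in the fit. With the other scalings, filters and tools, with contig-named rows and without K3 and K10 (chosen after seeing the data), they stayed within 1.5 times 2041 and 2354. With 1 of the 6 libraries left out they were 1898 to 2358 and 1999 to 2357. In hull, calls were 232 and 90 with DESeq2, 3 and 3 with no filter, 1100 and 511 without H15, and 0 to 1100 and 0 to 511 with 1 library left out. In shell, calls higher were 709 with DESeq2 and 741 without S14, and with 1 library left out 101 to 741 higher and 183 to 765 lower. The kernel step lay below the hull step for 2500 genes without H15. With 1 library left out it exceeded it for 1023 to 2894 and lay below it for 587 to 2500. The causes were not tested. The difference in contig share between 1357 and 1223 (6.92 percentage points) was -0.795 without K10, and -0.795 to 11.1 over all libraries left out. No paired analysis was possible because the labels give no replicate numbers that the groups share. The 3 libraries a group limit single-value tests to an exact p of 0.1, and the 3280773 counts of K10 limit low genes most.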

Other observations

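The genes called between 1223 and 1357 were spread over all 15 numbers that the PvKer identifiers carry after their prefix. Calls higher made up 11.3% (number 13) to 14.9% (number 07) of the genes tested, and calls lower 13.5% (number 01) to 19.1% (number 15). Genes called alike lay next to each other in the numbering somewhat more often than the background: of 2040 genes called higher with a next tested identifier of the same number, 383 (18.8%) were followed by another called higher, beside 13.5% of all genes tested, and 270 (13.2%) by one called lower. Of 2353 genes called lower, 457 (19.4%) were followed by another called lower, beside 15.6%, and 244 (10.4%) by one called higher. The longest unbroken run held 7 genes called higher and 5 called lower, and runs of 4 or more numbered 17 and 14. Whether neighbours share reads through near-identical sequence was not tested.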
